A study of Mus musculus with 13 samples.

Results

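NOTCH receptors, the Fringe enzymes that modify them and a set of direct NOTCH target genes were followed by RNA sequencing across the DN3 and DN4 stages of thymocyte development. The members were chosen by name: the receptors Notch1, Notch2 and Notch3, the Fringes Lfng, Mfng and Rfng, and the targets Hes1, Dtx1, Nrarp and Trib2. These are 10 of the 47937 genes in the deposited count table, and every member was found there and passed the filter on low counts in each comparison.

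DN3 (CD44low CD25high) and DN4 (CD44low CD25low) thymocytes were sorted from 6-week-old C57BL/6 mice with either the genotype Wt;Lck-Cre+, called Wt here, or the genotype Opa1fl/fl;Lck-Cre+, called KO-labelled here. Both carry the Lck-Cre transgene, which expresses Cre recombinase in developing T cells; Opa1 encodes a protein that shapes the inner mitochondrial membrane. The titles of the 13 libraries carry the numbers of 7 mice, and libraries with the same number are read here as the same animal. Both stages came from WT05, WT46 and WT48 (Wt) and from KO45, KO49 and KO51 (KO-labelled), and Wt mouse WT40 gave DN4 cells only. Every library is 1 mouse at 1 stage. The study asked how Opa1 deletion affects cells passing β-selection, the checkpoint between these stages.

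NOTCH receptors are transmembrane proteins that ligands on thymic stromal cells activate. Cleavage by ADAM proteases and γ-secretase then frees the intracellular domain, which joins RBPJ and MAML proteins on DNA and switches on targets such as Hes1 and Dtx1. Fringes add N-acetylglucosamine to O-fucose on the receptor's extracellular domain and so change which ligands it responds to. In the thymus NOTCH1 is required for commitment to the T lineage and supports early thymocytes up to β-selection.

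Libraries held 5926848 to 14148661 counts. Opa1 ranged from 88.6 to 93.8 CPM (normalised counts per 1000000 counts) in KO-labelled DN3 against 91.1 to 112 CPM in Wt DN3, and from 77.0 to 87.9 CPM against 85.1 to 93.8 CPM in DN4. Counts over the whole gene, which need not fall when a floxed segment is deleted, did not separate the genotypes (log2 fold change -0.12, adjusted p = 1 in DN3 and -0.08, adjusted p = 0.945 in DN4, edgeR quasi-likelihood test). They are no check of the deletion, and the genotype is used as labelled. Library DN3 WT05 stood apart: genes resembling ribosomal RNA took 26.9% of its counts against 0.346% to 1.38% in the other libraries. Y-linked genes were counted only in mice WT40 and WT46, so every KO-labelled mouse and only some Wt mice lacked them. The 11 B cell markers summed to 313 to 456 CPM in DN3 and to 1097 to 7258 CPM in DN4. All 11 passed the threshold as higher in DN4 in each genotype, by a median log2 fold change of 6.82 in Wt and 7.63 in KO-labelled mice.

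The DN3 receptor profile was led by Notch1 and Notch3. Per kilobase of exon, Wt DN3 cells held 125 ± 35.3 CPM of Notch1, 58.9 ± 0.83 CPM of Notch3 and 6.53 ± 4.09 CPM of Notch2 (mean ± SD, n = 3). Next to Notch3 in the order of the 10 levels came Mfng at 27.9 ± 1.54, Hes1 at 25.2 ± 10.5, Dtx1 at 19.2 ± 8.40, Rfng at 14.8 ± 0.72 and Lfng at 12.5 ± 3.63 CPM per kilobase. From Mfng down to Lfng, and on to Notch2 and Trib2 (4.37 ± 0.36), each gene's mean ± SD overlapped that of the next. Nrarp was the least abundant, at 2.14 ± 1.08. Only Notch1, Notch3 and Nrarp were clear of their neighbours by more than their SDs.

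That order was different in Wt DN4 cells, where Lfng and Mfng stood beside Notch1 at the top. Lfng was at 34.8 ± 2.85 CPM per kilobase, beside Mfng at 32.3 ± 3.07 and Notch1 at 29.2 ± 1.68 (mean ± SD, n = 4), neighbours that were not apart by more than their SDs. The order of these 3 depends on the gene length used: per kilobase of the longest transcript, Mfng was at 49.2 ± 4.68, Notch1 at 43.8 ± 2.52 and Lfng at 37.8 ± 3.09. Trib2 followed at 19.9 ± 2.80, then Rfng at 13.2 ± 2.01, Dtx1 at 11.2 ± 4.20, Notch2 at 9.36 ± 6.12 and Notch3 at 6.52 ± 0.51. Rfng, Dtx1, Notch2 and Notch3 overlapped from each to the next within 1 SD. Hes1 and Nrarp closed the order at 3.74 ± 1.64 and 2.07 ± 0.81. In KO-labelled DN4 cells Notch1 still led, at 37.2 ± 6.80 CPM per kilobase, ahead of Mfng at 27.0 ± 3.10 and Lfng at 22.6 ± 3.98, and Notch3 stood at 13.04 ± 4.42 (n = 3).

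**Figure D1:**
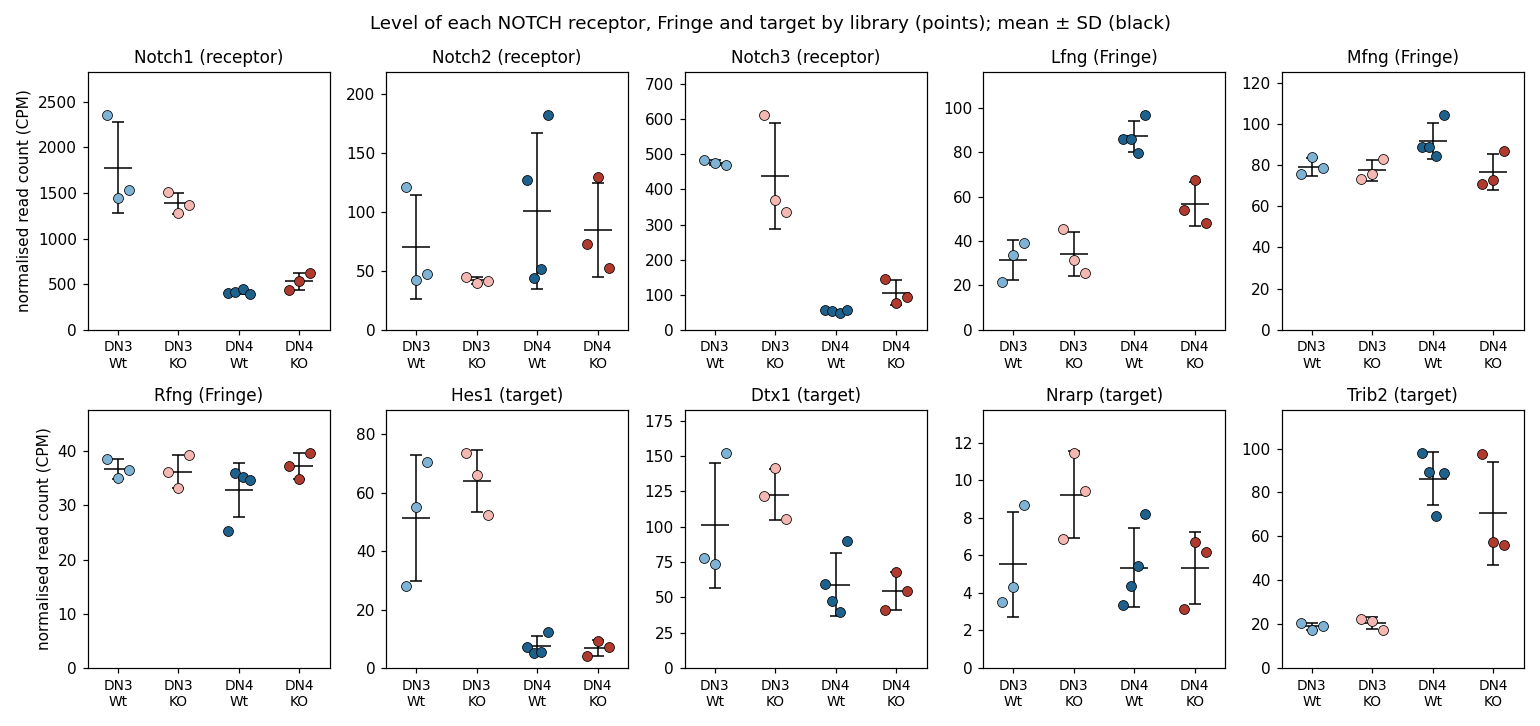
Normalised read count in CPM (vertical axes, linear from 0) of the 10 members in each library (points), by stage and genotype, with mean ± SD in black; n = 3 mice for each DN3 group and for KO-labelled DN4, and 4 for Wt DN4. Notch1, Notch3 and Hes1 sit lower in every DN4 library than in any DN3 library, Lfng and Trib2 sit higher, and Notch2, Mfng, Rfng, Dtx1 and Nrarp overlap between the stages in at least 1 genotype.

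Passage from DN3 to DN4 lowered Notch1, Notch3 and Hes1 and raised Trib2 in both genotypes. In Wt mice 5 of the 10 members passed an adjusted p of 0.05, where 22.9% of the 12691 genes tested did: Lfng and Trib2 were higher in DN4 (13.4% of all genes) and Notch1, Notch3 and Hes1 were lower (9.43% of all genes). In KO-labelled mice 5 of 10 passed, against 18.6% of 12580 genes: Trib2 was higher (11.2% of all genes) and Notch1, Notch3, Hes1 and Dtx1 were lower (7.34% of all genes). DN3 and DN4 values did not overlap for 6 members in Wt and for 8 in KO-labelled mice, where 35% and 38.7% of all genes were so separated. In bulk samples fewer cells of a type and less RNA per cell cannot be told apart.

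Mouse identity pairs the stages, where the DN3 and DN4 libraries of a number are read from their titles as the same animal. With mouse as a block, the count in KO-labelled mice rose from 5 to 8 members, with Notch2, Lfng and Nrarp added, while all genes called rose from 2338 to 4499. In Wt the block added Dtx1, for 6 members. With the mean level of the B cell markers as a covariate, 3 members (Notch3, Hes1 and Trib2) stayed past the threshold in Wt and 0 in KO-labelled mice, where 0 of all genes did with edgeR. That covariate runs almost entirely with stage.

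Notch1, the receptor required for T lineage commitment, was the most abundant receptor at each stage. In Wt DN3 it stood at 2358 CPM in WT05, 1449 in WT46 and 1532 in WT48, and in Wt DN4 at 406 in WT05, 415 in WT40, 449 in WT46 and 393 in WT48. In KO-labelled mice KO45, KO49 and KO51 it stood at 1514, 1286 and 1371 CPM in DN3 and at 431, 533 and 625 CPM in DN4. All DN4 libraries lay well below all DN3 libraries, and WT05 was the highest DN3 library. The level was 4.36-fold lower in DN4 in Wt (log2 fold change -2.12 ± 0.19 SE, adjusted p = 0.000233, edgeR) and 2.67-fold lower in KO-labelled mice (-1.42 ± 0.17, adjusted p = 0.00139). Notch1 lies on chromosome 2 (chr2:26457903-26516663, minus strand, GRCm38), and its exons overlap those of 0610009E02Rik and Gm13568 on the opposite strand. The strand setting of the counting is not given in the sources used here, so reads of Notch1, Notch3 and Nrarp cannot be told apart from those of such partners.

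Notch3, a second receptor known to be abundant in immature thymocytes, had the smallest p of all genes tested between the Wt stages. Wt DN3 libraries held 483, 476 and 470 CPM (WT05, WT46 and WT48), close together, and Wt DN4 libraries held 55.2, 53.2, 46.9 and 55.8 CPM (WT05, WT40, WT46 and WT48). KO-labelled libraries were more spread, at 613, 371 and 334 CPM in DN3 and 146, 77.3 and 93.4 CPM in DN4 (KO45, KO49 and KO51). Mouse KO45 was the highest KO-labelled mouse at each stage. The change was 9.19-fold lower in Wt (-3.20 ± 0.11, adjusted p = 8.74e-06) and 4.27-fold lower in KO-labelled mice (-2.09 ± 0.31, adjusted p = 0.00341, edgeR). The gene occupies chr17:32120820-32166852 on the minus strand (GRCm38) and shares exon sequence with Gm17276 on the opposite strand.

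Notch2, a receptor with a well-known role in marginal zone B cells, was higher in DN4 than in DN3 within each of the 6 mice sampled at both stages, without passing the test. In Wt it stood at 121, 42.3 and 47.7 CPM in DN3 (WT05, WT46 and WT48) and at 127, 43.6, 51.1 and 182 CPM in DN4 (WT05, WT40, WT46 and WT48), with overlap throughout. In KO-labelled mice it stood at 44.9, 39.4 and 41.6 CPM in DN3 and at 72.7, 129 and 52.3 CPM in DN4 (KO45, KO49 and KO51), with no overlap. Its log2 fold change was 0.52 ± 0.57 in Wt (adjusted p = 0.562) and 0.99 ± 0.30 in KO-labelled mice (adjusted p = 0.0551, edgeR). With mouse as a block the KO-labelled change was 0.89 with adjusted p = 0.0120, and without library DN4 KO51 it was 1.22 with adjusted p = 0.00631. Leaving out DN3 WT05, the library rich in ribosomal RNA-like counts, moved the Wt value from 0.52 to 1.13. The sign reversed once the B cell marker level was a covariate: the Wt value was then -2.92 and the KO-labelled value -1.19. Neither passed, and that covariate runs almost entirely with stage.

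Among the DN4 libraries, Notch2 followed the B cell markers. Notch2 and the summed B cell markers were lowest, at 43.6 to 52.3 CPM and 1097 to 1539 CPM, in KO51, WT40 and WT46, and highest, at 182 CPM and 7258 CPM, in WT48. Pearson's r was 0.982 (exact permutation p = 0.00238, adjusted p = 0.0238) and Spearman's rho 0.893 (exact permutation p = 0.0123, adjusted p = 0.123) over 7 libraries, two-sided and adjusted over 20 relations. Without WT48 and KO49, the libraries farthest from the median of the markers, r was 0.951. Against the 12 later-stage markers Notch2 had r = -0.576 (exact permutation p = 0.113, adjusted p = 0.322) and rho = -0.75 (exact permutation p = 0.0663, adjusted p = 0.221), and r = -0.978 without KO45 and WT40. Such relations were computed for the 10 members with the B cell markers and with 12 markers of later stages, and were chosen after the values were seen. The part of B cell RNA in the Notch2 level was not tested further. Notch2 lies at chr3:98013527-98150361 on the plus strand (GRCm38), where Gm42820 overlaps its exons on the same strand.

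Hes1 and Dtx1 were also higher in the DN4 libraries with more B cell marker RNA (r = 0.840 and 0.892, exact permutation p = 0.0440 and 0.0226), but neither passed after adjustment (adjusted p = 0.176 and 0.113). Without WT48 and KO49 those coefficients were 0.0766 and 0.375, so they rested on those libraries. Against the later-stage markers, which include Cd4, Cd8a and Rag1, Hes1 had r = -0.796 (exact permutation p = 0.00159, adjusted p = 0.0238) and rho = -0.893 (exact permutation p = 0.0123, adjusted p = 0.123), and r = -0.925 without KO45 and WT40. Dtx1 had r = -0.703 (exact permutation p = 0.0151, adjusted p = 0.101) and r = -0.970 without those libraries. Neither Notch1, Notch3, Lfng nor Trib2 passed against either marker list (smallest adjusted permutation p for r = 0.387).

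**Figure D2:**
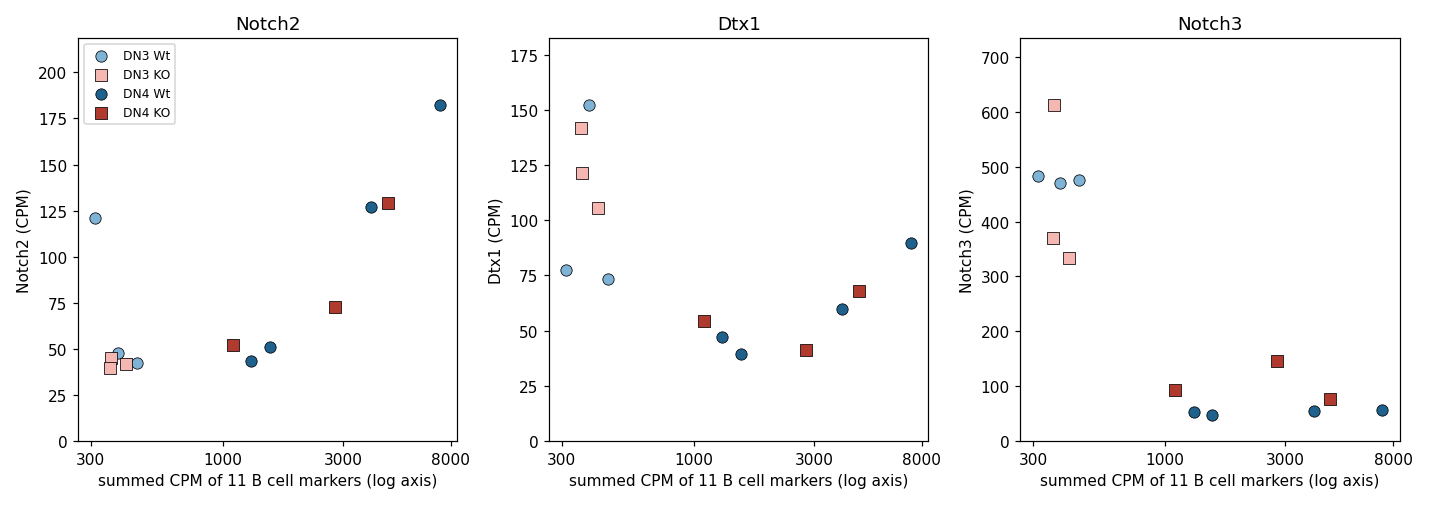
Level of Notch2, Dtx1 and Notch3 (CPM, linear axes) against the summed CPM of 11 B cell markers (log axis) in the 13 libraries; circles are Wt and squares KO-labelled, pale for DN3 and dark for DN4. In DN4 Notch2 ran from 43.6 to 182 CPM along the markers, Dtx1 was highest in the library with the most marker RNA, and Notch3 showed no such order.

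Within the receptor family, the mean share of Notch1 was similar at both stages, while that of Notch3 was smaller and that of Notch2 larger in DN4. Per kilobase of exon, Notch1 made up 65.03% ± 4.36 of the receptor RNA in Wt DN3 and 65.6% ± 10.2 in Wt DN4. Notch3 went from 31.7% ± 5.7 to 14.5% ± 1.4 and Notch2 from 3.24% ± 1.31 to 19.8% ± 11. KO-labelled cells held 34.2% ± 5.9 of Notch3 in DN3 and 22.7% ± 8.8 in DN4, and 2.52% ± 0.26 and 13.5% ± 6.2 of Notch2. In Wt DN4 the Notch2 share was above the Notch3 share in WT05 (25.0% against 14.5%) and WT48 (32.9% against 13.4%), the Wt libraries with the most B cell marker RNA, and below it in WT40 (10.2% against 16.5%) and WT46 (11.3% against 13.8%). The summed receptor level was 190 ± 40.1 CPM per kilobase in Wt DN3 and 45.1 ± 5.21 in Wt DN4, and 156 ± 26.3 and 58.1 ± 2.73 in KO-labelled cells. Shares are descriptions with no test and depend on the gene length used: with the longest transcript in place of all exons, Notch1 took 73.4% in Wt DN3.

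Lfng, the Fringe best known for its role in early thymocytes, was the only Fringe past the threshold between the stages. Wt DN3 libraries held 21.4, 33.8 and 39.1 CPM (WT05, WT46 and WT48) and Wt DN4 libraries 86.0, 85.9, 79.6 and 96.8 CPM (WT05, WT40, WT46 and WT48). KO-labelled libraries held 45.3, 31.3 and 25.7 CPM in DN3 and 53.9, 67.5 and 48.1 CPM in DN4 (KO45, KO49 and KO51). DN4 lay above DN3 in each genotype without overlap, with a wide gap in Wt and a narrow gap in KO-labelled mice. The rise was 2.69-fold in Wt (log2 fold change 1.43 ± 0.19, adjusted p = 0.00155). The KO-labelled value was 0.70 ± 0.23, which did not pass (adjusted p = 0.0756, edgeR). It was 0.72 with adjusted p = 0.00928 with mouse as a block, and it passed as well without DN3 KO45 (0.98, adjusted p = 0.0184) or without DN4 KO51 (0.79, adjusted p = 0.0484). In all, the KO-labelled value passed in 6 of 17 alternative fits, and it was at -0.11 with the B cell marker level as a covariate. The gene lies at chr5:140607320-140615545 on the plus strand (GRCm38).

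Mfng, the manic Fringe, and Rfng, the radical Fringe, varied less and passed in none of the settings run between the stages. Mfng lay between 70.8 and 104 CPM over the 13 libraries, with log2 fold changes of 0.18 ± 0.11 in Wt (adjusted p = 0.278) and -0.04 ± 0.12 in KO-labelled mice (adjusted p = 0.857). Its Wt groups did not overlap, with DN3 at 75.5 to 84.1 CPM and DN4 at 84.6 to 104 CPM, but the gap was less than 1 CPM. Rfng lay between 25.3 and 39.6 CPM, with -0.19 ± 0.15 in Wt (adjusted p = 0.423) and 0.02 ± 0.12 in KO-labelled mice (adjusted p = 0.941). Mfng lies at chr15:78755882-78773475 and Rfng at chr11:120780746-120784207, both on the minus strand (GRCm38). Among the Fringes, Lfng's share of the RNA per kilobase was 22.5% ± 5.15 in Wt DN3 and 43.3% ± 1.4 in Wt DN4, and 24.4% ± 6.2 and 34.9% ± 5.7 in KO-labelled cells. With the longest transcript in place of all exons, Lfng took 37.7% and Mfng 49.04% in Wt DN4. Per kilobase of all exons Mfng held 50.7% ± 2.6 and 40.2% ± 1.2 in Wt, and Rfng 26.9% ± 3.3 and 16.4% ± 2.4. The summed Fringe level was 55.2 ± 4.01 CPM per kilobase in Wt DN3 and 80.2 ± 6.39 in Wt DN4, and 55.4 ± 2.98 and 64.6 ± 2.74 in KO-labelled cells.

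**Figure D3:**
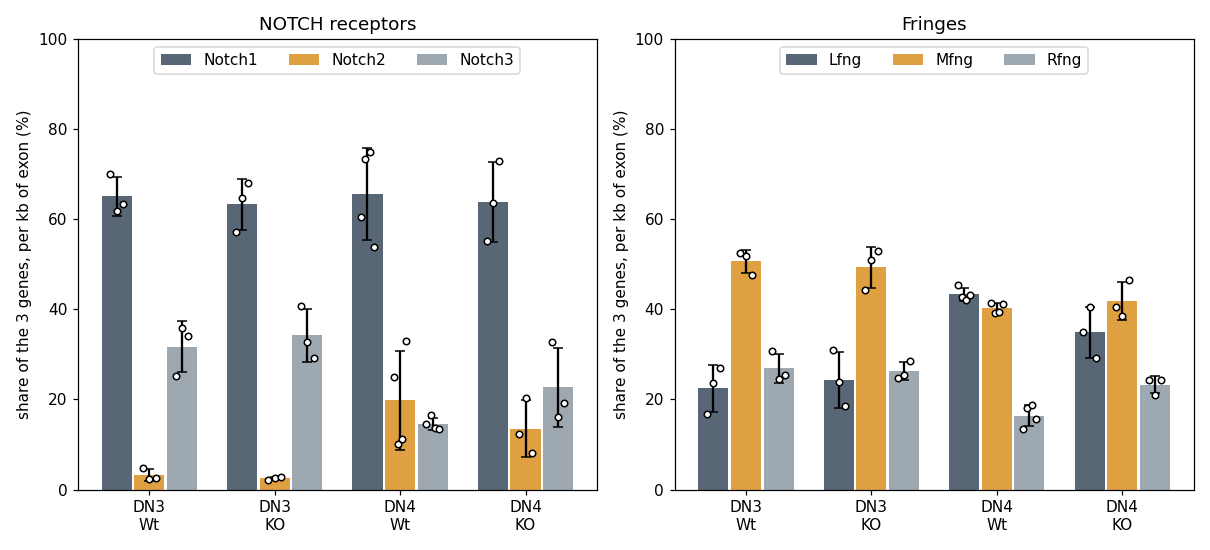
Share of each gene in the summed CPM per kilobase of exon of the NOTCH receptors (left) and of the Fringes (right), in percent, by stage and genotype; bars are means, error bars SD and points libraries (n = 3, or 4 for Wt DN4). Notch3 takes a smaller and Notch2 a larger mean share in DN4 than in DN3, and Lfng goes from 22.5% in Wt DN3 to 43.3% in Wt DN4.

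Promoter sequence was read for the members because RBPJ, the DNA-binding partner of the NOTCH intracellular domain, recognises a short core motif, TGGGAA. RefSeq promoters on GRCm38.p6 (250 bases before to 50 after the start) were matched for 8 of the 10 members, all but Hes1 and Mfng. The motif was searched on both strands. Lfng held 2 matches and the other 7 members 0, where 25.6% of 32851 promoters held at least 1 and 3.79% at least 2. The matches in Lfng begin 135 and 108 bases before the start, the first on the reverse strand (as TTCCCA) and the second on the forward strand. The 250 bases before the start are shown for Lfng (chr5:140607091-140607340, plus strand) and for Notch3 (chr17:32166891-32167140, minus strand), the members with the smallest p between genotypes in DN4; capitals mark the motif.
Lfng: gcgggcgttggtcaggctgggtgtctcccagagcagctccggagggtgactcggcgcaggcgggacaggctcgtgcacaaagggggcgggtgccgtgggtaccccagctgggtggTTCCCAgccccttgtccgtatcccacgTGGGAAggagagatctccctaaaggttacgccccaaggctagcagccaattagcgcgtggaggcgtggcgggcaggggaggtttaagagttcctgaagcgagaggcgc
Notch3: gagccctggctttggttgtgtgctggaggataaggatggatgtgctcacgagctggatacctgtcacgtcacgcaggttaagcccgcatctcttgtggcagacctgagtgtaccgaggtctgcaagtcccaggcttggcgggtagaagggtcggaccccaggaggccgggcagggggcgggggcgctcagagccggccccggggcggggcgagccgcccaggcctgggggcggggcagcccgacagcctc
A match is a run of letters in this window and not a measured binding site, and a window without a match says nothing about sites elsewhere.

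Hes1, a transcriptional repressor and a classical NOTCH target, fell to a low level in DN4. Wt DN3 libraries held 28.1, 55.1 and 70.5 CPM (WT05, WT46 and WT48) and Wt DN4 libraries 7.2, 5.3, 5.5 and 12.5 CPM (WT05, WT40, WT46 and WT48). KO-labelled libraries held 73.5, 66.0 and 52.5 CPM in DN3 and 4.1, 9.4 and 7.3 CPM in DN4 (KO45, KO49 and KO51). No DN4 library reached any DN3 library, and WT05 was the lowest in DN3. The level was 6.91-fold lower in DN4 in Wt (-2.79 ± 0.38, adjusted p = 0.00159) and 9.40-fold lower in KO-labelled mice (-3.23 ± 0.30, adjusted p = 0.000578, edgeR). DN4 libraries rested on 54 to 136 counts of Hes1. It lies at chr16:30064384-30067796 on the plus strand (GRCm38).

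Dtx1, or Deltex 1, is an E3 ubiquitin ligase that acts on NOTCH signalling and is itself a target. Wt DN3 libraries held 77.5, 73.5 and 152 CPM (WT05, WT46 and WT48), and Wt DN4 libraries held 59.5, 47.2, 39.4 and 89.8 CPM (WT05, WT40, WT46 and WT48). KO-labelled libraries held 121, 142 and 105 CPM in DN3 and 41.2, 68.0 and 54.2 CPM in DN4 (KO45, KO49 and KO51). The Wt groups overlapped, since mouse WT48 was the highest at each stage, and the KO-labelled groups did not. The level was 2.29-fold lower in DN4 in KO-labelled mice (-1.19 ± 0.20, adjusted p = 0.00579). In Wt the value was -0.81 ± 0.34, which did not pass (adjusted p = 0.123). With mouse as a block it was -0.71 with adjusted p = 0.0188, and without DN4 WT48 it was -1.09 with adjusted p = 0.0424. Dtx1 lies at chr5:120680202-120711927 on the minus strand (GRCm38).

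Nrarp, an ankyrin repeat protein that restrains NOTCH signalling, was the least abundant member, at 3.1 to 11.4 CPM on 12 to 97 counts. Wt DN3 libraries held 3.5, 4.3 and 8.7 CPM and Wt DN4 libraries 3.3, 4.4, 5.4 and 8.2 CPM, so the stages overlapped fully. In KO-labelled mice the values were 6.8, 11.4 and 9.4 CPM in DN3 and 3.1, 6.7 and 6.2 CPM in DN4 (KO45, KO49 and KO51), just separated. Log2 fold changes were -0.10 ± 0.41 in Wt (adjusted p = 0.894) and -0.80 ± 0.34 in KO-labelled mice (adjusted p = 0.145, or 0.0175 at -0.85 with mouse as a block). It lies at chr2:25180758-25183339 on the plus strand (GRCm38), with exon overlap with Gm38287 on the opposite strand.

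Trib2, a pseudokinase and a NOTCH1 target in T cell leukaemia, rose where Hes1 fell. It stood at 17.3 to 22.4 CPM in all DN3 libraries. Wt DN4 libraries held 97.9, 89.2, 69.2 and 88.7 CPM (WT05, WT40, WT46 and WT48) and KO-labelled DN4 libraries 97.7, 57.6 and 56.2 CPM (KO45, KO49 and KO51). The lowest DN4 library was still above the highest DN3 library by more than the whole DN3 range. The rise was 4.49-fold in Wt (2.17 ± 0.15, adjusted p = 8.14e-05) and 3.39-fold in KO-labelled mice (1.76 ± 0.24, adjusted p = 0.00234, edgeR). Trib2 lies at chr12:15791727-15816922 on the minus strand (GRCm38).

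**Figure D4:**
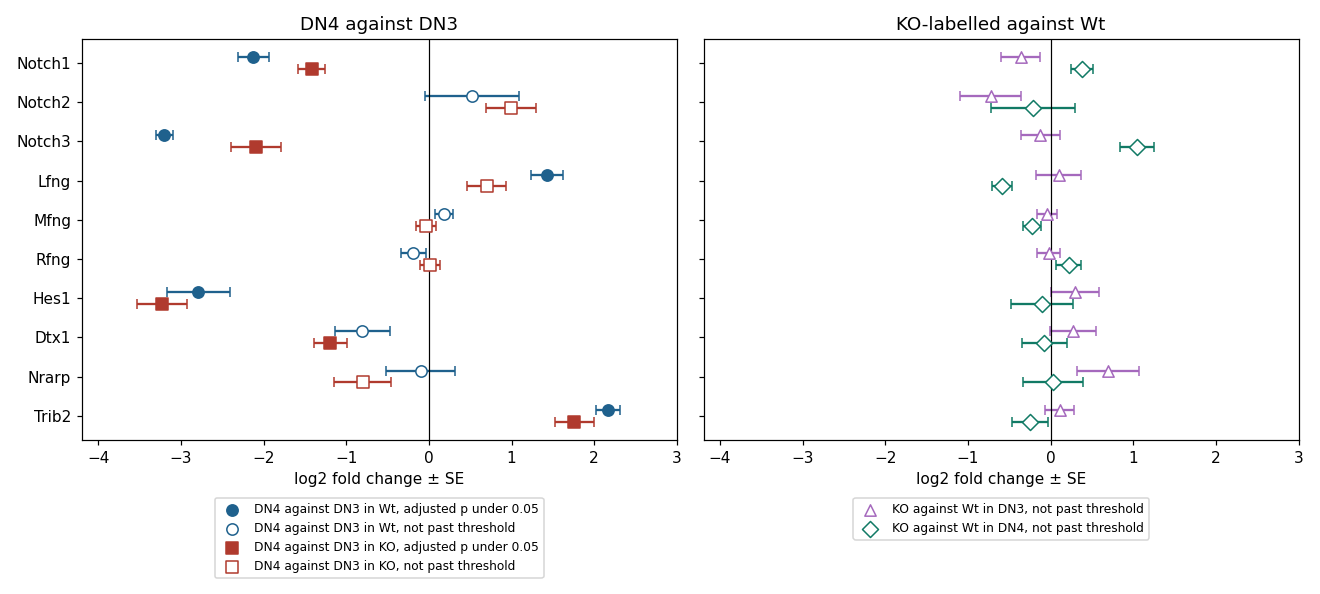
Log2 fold change ± SE of each member between stages (left; circles Wt, squares KO-labelled) and between genotypes (right; triangles DN3, diamonds DN4), from edgeR; filled symbols passed an adjusted p of 0.05 and open symbols did not. Notch1, Notch3 and Hes1 lie left of 0 and Trib2 right of 0 in both stage comparisons, and every symbol between genotypes is open.

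Within single animals the same directions held for most members. The change from DN3 to DN4 in a mouse, on the log2 scale with a prior count of 2, was negative in 6 of 6 mice for Notch1, Notch3, Hes1 and Dtx1 and positive in 6 of 6 for Notch2, Lfng and Trib2. Notch1 changed by -2.54, -1.69 and -1.96 in WT05, WT46 and WT48 and by -1.81, -1.27 and -1.13 in KO45, KO49 and KO51, so the genotypes overlapped. Notch3 changed by -3.13, -3.34 and -3.07 in the Wt mice and by -2.07, -2.26 and -1.84 in the KO-labelled mice. Lfng changed by 1.97, 1.23 and 1.30 in Wt and by 0.25, 1.10 and 0.90 in KO-labelled mice. For Notch3 and Lfng every KO-labelled mouse changed less than every Wt mouse. Rfng changed by -0.62 to 0.0047 in Wt and by 0.015 to 0.067 in KO-labelled mice, also without overlap but with a narrow gap.

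**Figure D5:**
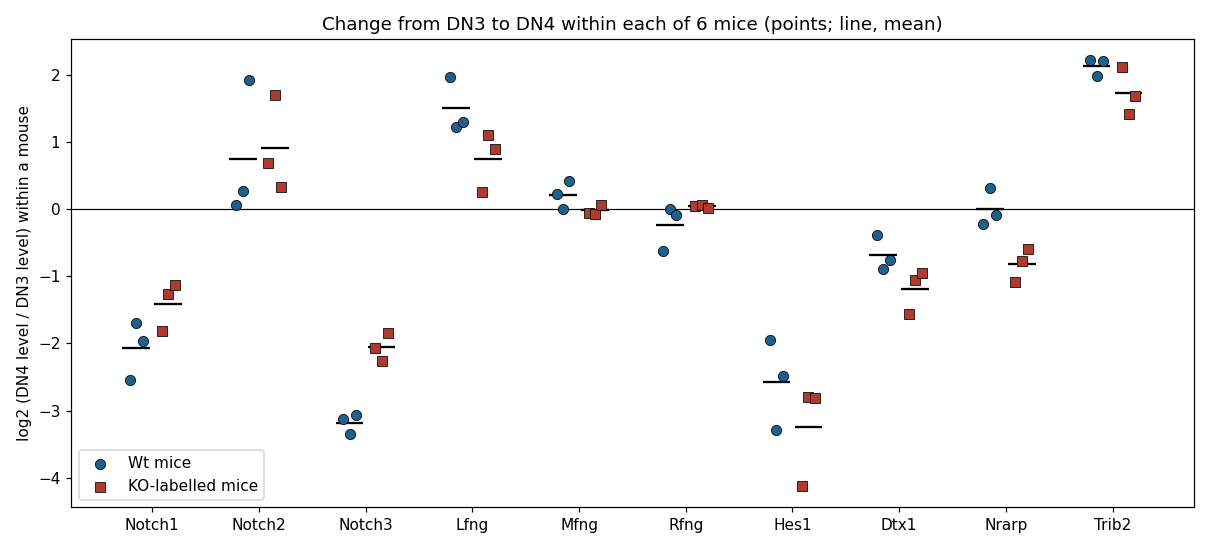
Log2 ratio of the DN4 to the DN3 level of each member within each of the 6 mice sampled at both stages (circles, Wt; squares, KO-labelled; black line, mean of 3 mice). For Notch3 the Wt mice lie between -3.34 and -3.07 and the KO-labelled mice between -2.26 and -1.84; for Hes1 and Notch1 the genotypes overlap.

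For Dtx1 and Nrarp the within-mouse values lay further below 0 in KO-labelled than in Wt mice. Dtx1 changed by -0.39, -0.90 and -0.76 in WT05, WT46 and WT48 and by -1.56, -1.06 and -0.96 in KO45, KO49 and KO51. Nrarp changed by -0.23, 0.31 and -0.08 in Wt mice and by -1.09, -0.77 and -0.59 in KO-labelled mice. Within-mouse changes of the genotypes thus did not overlap for 5 members (Notch3, Lfng, Rfng, Dtx1 and Nrarp), where they did not for 10.6% of 13361 genes. The test of such differences is the stage by genotype interaction, fitted to the 13 libraries, in which 0% of 13361 genes and 0 members passed with edgeR; 480 genes had an unadjusted p under 0.05, and DESeq2 called 2 genes, no member among them. Among those with an unadjusted p under 0.05 were Notch3 at 1.12 ± 0.32, Notch1 at 0.70 ± 0.26 and Lfng at -0.72 ± 0.31, each with an adjusted p of 1 from edgeR. The interaction was 1.13 for Notch3 (adjusted p = 0.901) with mouse as a block, so no member's stage change was shown to differ between genotypes.

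Between genotypes in DN3, 0 members and 0% of 12105 genes passed with edgeR; 168 genes had an unadjusted p under 0.05, and DESeq2 called 3 genes, none a member. All 10 members had an adjusted p of 1, and 0 had groups that did not overlap, where 6.44% of all genes had. Log2 fold changes of KO-labelled against Wt ran from -0.73 ± 0.37 for Notch2 to 0.69 ± 0.38 for Nrarp. The other receptors were at -0.36 ± 0.23 (Notch1) and -0.12 ± 0.23 (Notch3), and the other targets at 0.30 ± 0.29 (Hes1), 0.27 ± 0.28 (Dtx1) and 0.11 ± 0.18 (Trib2), none past the threshold. Notch3 ran from -0.44 without DN3 KO45 to 0.04 without DN3 KO51, and was at 0.13 with library totals in place of TMM. Lfng was at 0.09 and ran from -0.17 without DN3 KO45 to 0.28 without DN3 WT48. Without library DN3 WT05, in which Notch1 and Notch2 were the highest and Hes1 and Nrarp the lowest of the DN3 libraries, the values were -0.10 for Notch1, -0.10 for Notch2, 0.03 for Hes1 and 0.50 for Nrarp. Without DN3 WT48, in which Hes1, Dtx1 and Nrarp were the highest of the Wt DN3 libraries, they were 0.59 for Hes1, 0.70 for Dtx1 and 1.20 for Nrarp (each adjusted p = 0.974, edgeR). Dtx1 was at 0.08 without DN3 WT46 and at 0.12 without DN3 WT05.

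Between genotypes in DN4, Notch3 was higher and Lfng lower in every KO-labelled library, but neither passed the edgeR test. Across all genes 0.0535% of 13084 passed, which is 7 genes and 0 members; 715 genes had an unadjusted p under 0.05. Groups did not overlap for 2 members, where they did not for 7.08% of all genes. Notch3 was at 77.3 to 146 CPM in KO-labelled and 46.9 to 55.8 CPM in Wt DN4 cells (log2 fold change 1.04 ± 0.21, adjusted p = 0.427, edgeR). Lfng was at 48.1 to 67.5 CPM in KO-labelled and 79.6 to 96.8 CPM in Wt DN4 cells (-0.59 ± 0.12, adjusted p = 0.435, edgeR). The DESeq2 Wald test, which called 50 genes, called both: Notch3 at 1.02 (adjusted p = 0.00208) and Lfng at -0.60 (adjusted p = 0.0135).

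Both differences kept their direction in the 17 alternative fits run; other thresholds leave the values as they are. Leaving out each DN4 library in turn gave 0.72 to 1.24 for Notch3 and -0.72 to -0.48 for Lfng, with the lowest Notch3 value without KO45. Among mice without Y-linked counts they were 0.98 and -0.65 (adjusted p = 0.433 and 0.413), and with the B cell marker level as a covariate 1.05 and -0.57 (adjusted p = 0.107 and 0.0821). Marker sums also differed between these libraries. Later-stage markers summed to 6671 CPM in DN4 KO45, the highest of all DN4 libraries, while KO49 and KO51, at 2616 and 3083 CPM, lay within the Wt DN4 range of 1962 to 4473 CPM. Rag1, which is in both the DN3 and the later-stage list and made up most of the DN3 list's sum in DN4, was at 519 to 1590 CPM in KO-labelled and 251 to 875 CPM in Wt DN4, with overlap. Of the other DN3 markers, Rag2 was at 45.8 to 125 CPM in KO-labelled and 22.4 to 65.6 CPM in Wt DN4, Ptcra at 32.6 to 52.1 against 17.9 to 36.9 CPM and Il2ra at 10.96 to 24.1 against 9.78 to 15.01 CPM, each with overlap and a higher mean in KO-labelled cells. Il7r was at 35.5 to 60.2 against 65.7 to 68.7 CPM, and Erg overlapped with a lower mean in KO-labelled cells. Cd44, though in this list, was lower in DN3 than in DN4 (means of 3.89 and 15.5 CPM in Wt). In DN4 it overlapped between genotypes, with a lower mean in KO-labelled cells. The NK and innate lymphoid markers summed to 326 to 465 CPM in KO-labelled and 502 to 651 CPM in Wt DN4. Gzma was the largest part, at means of 240 and 298 CPM, and was already at 264 and 236 CPM in DN3. Il2rb, Nkg7 and Eomes were lower in KO-labelled DN4 without overlap. Ncr1, Klrb1c and Tbx21 overlapped, with means of 2.68 and 2.48 CPM for Klrb1c and 4.95 and 4.98 CPM for Tbx21. Fitted values were above 0 for 3 of these 8 markers and below 0 for 5, and none passed. Over the 7 DN4 libraries Notch3 had r = 0.733 with the later-stage markers (exact permutation p = 0.174, adjusted p = 0.387) and r = 0.146 without KO45 and WT40, and rho was 0.107 (exact permutation p = 0.840, adjusted p = 0.884). Lfng had r = -0.480 (exact permutation p = 0.302, adjusted p = 0.487) and rho = -0.571 (exact permutation p = 0.2, adjusted p = 0.363), and r = -0.607 without those libraries. All 8 gamma delta T markers and all 11 B cell markers had fitted values below 0 in KO-labelled against Wt DN4. Their median log2 fold changes were -0.52 and -0.34, and none passed. The gamma delta T markers summed to 984 to 1467 CPM in KO-labelled and 1300 to 2593 CPM in Wt DN4, with overlap. The part of the DN3, NK and innate lymphoid and gamma delta T markers in the Notch3 and Lfng values was not tested.

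The other 8 members had overlapping groups in DN4, with log2 fold changes smaller in size than that of Lfng over the 7 libraries. Notch1 was at 0.38 ± 0.13 (adjusted p = 0.883, edgeR), with KO45 at 431 CPM inside the Wt range of 393 to 449 CPM. Mfng was at -0.22 ± 0.11, Rfng at 0.22 ± 0.15, Trib2 at -0.25 ± 0.22 and Notch2 at -0.21 ± 0.51. Hes1, Dtx1 and Nrarp lay between -0.11 and 0.03. Among mice without Y-linked counts Notch2 was at -0.82, Hes1 at -0.46 and Dtx1 at -0.41, and without WT48 they were at 0.23, 0.22 and 0.18. Nrarp ran from -0.15 without KO49 to 0.30 without WT48, so the direction of these 4 depended on the libraries used. Trib2 was at -0.58 without KO45 and at -0.10 without KO51 (adjusted p = 0.815 and 0.999, edgeR). The genotype comparisons share their libraries with the stage comparisons, so a low or high DN4 library enters each of them.

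Other genes of the NOTCH pathway were read from lists of ligands, processing enzymes, nuclear partners, corepressors, trafficking genes and further targets. Of 73 matched genes, 60 were tested between the Wt stages: 6 were higher and 15 lower in DN4, or 35.0%, where 22.9% of all genes passed, with a median log2 fold change of -0.25 against -0.03 for all genes. In KO-labelled mice 7 of 62 were higher and 11 lower, or 29.0% against 18.6% of all genes, with a median of -0.08 against -0.02. Between genotypes and in the interaction 0 passed with edgeR. Of the 8 genes for Notch4 and the ligands, only 1 and 2 passed the filter on low counts in Wt and KO-labelled mice.

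Of the receptor processing genes, 2 of 11 tested were higher and 0 lower in Wt DN4, and 1 of 12 was higher and 0 lower in KO-labelled DN4, where 22.9% and 18.6% of all genes passed. Of 9 nuclear complex genes, 0 were higher and 3 lower in Wt, and 3 were higher and 2 lower in KO-labelled mice. ADAM17, a protease that cleaves NOTCH receptors, was encoded at 1.42-fold higher levels in Wt DN4 (0.51 ± 0.14, adjusted p = 0.0337) and 1.29-fold higher levels in KO-labelled DN4 (0.37 ± 0.10, adjusted p = 0.0361). Furin, the convertase that cuts the receptor precursor, was higher in Wt DN4 (0.66 ± 0.18, adjusted p = 0.0343). Maml3, a coactivator of the complex, was lower by 1.32 ± 0.26 on the log2 scale in Wt and by 1.17 ± 0.22 in KO-labelled mice (adjusted p = 0.00814 and 0.00907). Kat2a, an acetyltransferase, was lower by 0.52 ± 0.11 and 0.58 ± 0.16 (adjusted p = 0.0125 and 0.0362), and Kat2b was lower in Wt by 0.36 ± 0.11 (adjusted p = 0.0481). In KO-labelled mice the acetyltransferase genes Ep300 and Crebbp were higher by 0.68 ± 0.12 and 0.54 ± 0.14 and Maml1 by 0.44 ± 0.12 (adjusted p = 0.00690, 0.0294 and 0.0414), while in Wt they stood at 0.05 ± 0.36, -0.57 ± 0.53 and 0.40 ± 0.19 and did not pass. Rbpj itself was at -0.31 ± 0.14 and -0.25 ± 0.12, and neither passed (adjusted p = 0.154 and 0.184, edgeR).

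Of 15 trafficking and turnover genes, 2 were higher and 4 lower in Wt DN4, and 2 and 3 in KO-labelled mice, where 22.9% and 18.6% of all genes tested passed. Neurl3, a relative of the Neuralized ubiquitin ligases, was at 1.18 ± 0.51 CPM in Wt DN3 and 88.6 ± 46.3 CPM in Wt DN4 (6.09 ± 0.57, adjusted p = 0.000273), and at 5.70 ± 0.73 in KO-labelled mice. Mib1 and Mib2, ligases that act on NOTCH ligands, were lower in Wt DN4 by 1.17 ± 0.33 and 0.69 ± 0.13 on the log2 scale. Mib1 was also lower in KO-labelled DN4, by 0.71 ± 0.13 (adjusted p = 0.00752, edgeR), and Mib2 was at -0.27 ± 0.16 there and did not pass (adjusted p = 0.289). Dtx2, a relative of Dtx1, was higher by 0.54 ± 0.12 in Wt and 0.82 ± 0.15 in KO-labelled mice, where Dtx4 was lower by 2.07 ± 0.45, so the Deltex genes did not all change in 1 direction there.

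Of 11 further targets tested, 7 were lower and 1 higher in Wt DN4, where 9.43% of all genes were lower and 13.4% higher. In KO-labelled DN4, 5 were lower and 1 higher, where 7.34% and 11.2% of all genes were. Il2ra, which encodes CD25 and was part of the sort, was 83.7-fold lower in Wt and 64.5-fold lower in KO-labelled mice. Ptcra, the pre-T cell receptor α chain, was lower by 2.13 ± 0.30 in Wt (adjusted p = 0.00178) and by 1.65 ± 0.19 in KO-labelled mice (adjusted p = 0.00133). Cdkn1a, a cell cycle inhibitor, was lower by 2.12 ± 0.27 and 2.48 ± 0.24 on the log2 scale, and Myc, a growth regulator, was lower by 0.98 ± 0.19 in Wt (adjusted p = 0.00755) and by 0.96 ± 0.23 in KO-labelled mice (adjusted p = 0.0248). Gimap5, a GTPase of lymphocyte survival, was higher, like Trib2, by 2.19 ± 0.28 and 1.49 ± 0.25 (adjusted p = 0.00112 and 0.00631, edgeR).

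The genes whose log2 CPM ran most like each member over the 13 libraries were listed as a description; the libraries share stage, which separates those of Notch1, Notch3, Lfng, Hes1 and Trib2. Closest to Notch1 were Smim6 (r = 0.991), Evpl (0.989) and Runx1 (0.984), and closest to Notch3 were Tm6sf1 (0.984), Micall2 (0.982) and Camk2a (0.977). Notch2 ran with Map3k5 (0.986), Pik3c2b (0.968) and Myo7a (0.961), Lfng with Cd53 (0.981), Cyth4 (0.966) and Smpdl3a (0.965), Hes1 with Fads3 (0.987), Adgrd1 (0.985) and Cdh1 (0.983), and Trib2 with Il6ra (0.991), Txk (0.991) and Spock2 (0.990). Dtx1 and Nrarp had weaker partners, led by Ogfrl1 (0.934) and Fancf (0.916), and Mfng and Rfng were led by Grb7 (0.881) and Mbd6 (0.885). Among the members, Hes1 and Dtx1 had r = 0.90, Notch1 and Notch3 had 0.94, and Trib2 had -0.96 with Notch1 and -0.93 with Hes1.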

How the data were processed

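The authors prepared stranded mRNA libraries, trimmed reads with Cutadapt, aligned them with STAR and deposited whole-number read counts per gene from featureCounts, unnormalised; mm10 is named in the submitters' processing notes, and versions, annotation and strand setting are not given in the sources used here. The table holds 47937 genes and 0 unused columns. Names and coordinates are from GENCODE M21 (47224 identifiers found without version). CPM uses TMM-scaled library sizes; per-kilobase values use all exons. At 5926848 to 14148661 counts per library, counting error limits only the low members.

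For every comparison the libraries of its groups alone were fitted with edgeR 4.0.16 (filterByExpr minimum count 10, quasi-likelihood, Benjamini-Hochberg, threshold 0.05) in R 4.3.3; DESeq2 1.42.0 and limma 3.58.1 served as alternatives. Fits were tested on simulated data. Same-numbered stages were read from their titles as the same mouse. Their deviations correlated at r = 0.112 to 0.549 over 13361 genes, so mouse was tried as a block. Members, lists and tests were chosen with earlier results of these data known. All members are named; from each pathway list up to 6 called, non-overlapping genes with the largest change were eligible; 3 most similar protein-coding genes per member were sought. Rbpj was named for its role. Tle5 and Hes4 were not matched.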

Additional observations from a re-analysis of the deposited data

Results flagged for a closer look

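Rfng in DN4 Wt mouse WT05 stood at 25.3 CPM, against 34.6 to 36.0 CPM in the other 3 Wt DN4 mice; its gap to the nearest of them was 0.868 of the group's range, above Dixon's 95% critical value for 4 samples. Chance alone sets apart about 1 in 20 such groups, and the groups of 3 were not examined this way. Without this library Rfng in DN4 was 0.10 higher on the log2 scale in KO-labelled than in Wt mice, against 0.22 with it.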

How the results depend on the processing

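Settings were changed singly, except in fits that combined the block with leaving out mouse WT05, which were chosen after seeing the data. In Wt, 2903 genes separated the stages, 1782 with library totals in place of TMM, 285 with the B cell marker covariate, 1723 among mice without Y-linked counts, 1724 with a log2 fold change of at least 1, and 1845 to 3393 without each library; members called were 5, 3 with the covariate, and 5 to 6 without each library. Library totals moved the median of all genes in Wt to 0.16 from -0.03 and the higher share of calls to 77.8% from 58.8%. In KO-labelled mice 2338 genes were called, 0 with the covariate, 4499 with mouse as a replicate block, 1385 with the fold limit, and 1407 to 2790 without each library; 5 members were called, 0 with the covariate, 8 with the block and 5 to 7 without each library. Between genotypes in DN3 the count was 0 genes, 1 without the low-count filter, 3 with DESeq2, 1 among mice without Y-linked counts, and 0 to 1 without each library. In DN4 it was 7 genes, 11 without the filter, 50 with DESeq2, 25 with the covariate, 1 among mice without Y-linked counts, and 0 to 8 without each library; DESeq2 called 2 members. For the interaction DESeq2 called 2 genes. Beyond Notch2, Lfng and Nrarp in KO-labelled mice and Dtx1 in Wt, the block changed no member's call. Notch2 and Lfng in KO-labelled mice also passed with DESeq2, without the filter and at an adjusted p of 0.1. No member value called in the main fit changed sign in the alternatives run. Notch2 and Lfng in KO-labelled mice, not called in the main fit, were at -1.19 and -0.11 with the covariate. The cause of these shifts was not tested.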
